A study of Mus musculus with 24 samples.

Results

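The Ifi200 family, also called the PYHIN or HIN-200 family, is a cluster of interferon-inducible genes on mouse chromosome 1 that includes sensors of DNA. The 10 members described here, Ifi203, Ifi204, Ifi206, Ifi207, Ifi208, Ifi209, Ifi211, Ifi213, Mndal and Aim2, were taken by gene symbol from a table of raw counts for 53465 genes. Each of the 10 symbols matched a row. Natural killer (NK) cells, innate cytotoxic lymphocytes, were sorted at day 14 from B16F10 melanoma tumours grown under the skin of the flank in female wild-type (B6) mice, and 100 cells went into each library. CD27 marks less mature NK cells, CD11b marks mature ones, and CD69 is a surface lectin of activated and tissue-retained lymphocytes. The 4 populations were CD27+CD69+, CD27+CD69-, CD11b+CD69+ and CD11b+CD69-, with 6 libraries each, and the labels name no treatment. The labels name melanoma as the cell type. Nothing in them ties a replicate to its own animal, and p-values therefore cover the variation among these libraries alone, which may be technical.

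Proteins of this family combine a pyrin domain, through which they recruit partner proteins, with a HIN domain that binds DNA, or carry one of these alone. Aim2 binds double-stranded DNA in the cytosol and assembles an inflammasome with the adaptor Pycard and the protease Casp1. Ifi204 is related to human IFI16, a DNA sensor that signals through STING. Type I interferon induces many members in leukocytes.

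The 10 genes lie between positions 173350879 (Aim2) and 173942672 (Ifi203) of chromosome 1 in GRCm38, a stretch with 19 annotated genes in GENCODE M21, 12 of them protein coding. Aim2, Ifi209 and Ifi208 are on the plus strand, and the other members are on the minus strand. RefSeq promoter windows, from 250 bases before to 50 bases after the start of transcription in GRCm38.p6, were found for 9 of the 10 members, all but Ifi204, with 11 windows in all. The core of the interferon-stimulated response element, searched on both strands as GAAA, any 2 bases and GAAA again, was present in windows of 7 members, against 3.44% of all 32851 windows and 3.99% of the 27025 genes. It lay between 35 and 73 bases before the start. Aim2 and Ifi209 had no match in these windows. The gamma-activated site TTCNNNGAA, searched on both strands, was in no member window and in 8.30% of all windows. A match of letters is a description of the sequence and not evidence of binding. The sequences below, 50 bases each, show how alike these elements are between members; capitals mark the matching letters, or in Ifi209 the corresponding stretch that departs from the motif in its first letter.
Ifi206, chr1:173491334-173491383, minus strand: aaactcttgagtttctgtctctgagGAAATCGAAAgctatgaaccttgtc
Ifi213, chr1:173599321-173599370, minus strand: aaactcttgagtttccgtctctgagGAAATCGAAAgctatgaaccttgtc
Ifi208, chr1:173673582-173673631, plus strand: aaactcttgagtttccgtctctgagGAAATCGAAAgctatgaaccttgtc
Ifi207, chr1:173741826-173741875, minus strand: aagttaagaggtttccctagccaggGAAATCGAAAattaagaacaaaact
Mndal, chr1:173880199-173880248, minus strand: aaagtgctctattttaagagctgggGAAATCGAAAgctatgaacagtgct
Ifi203, chr1:173942503-173942552, minus strand: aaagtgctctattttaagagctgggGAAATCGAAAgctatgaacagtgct
Ifi211, chr1:173913059-173913108, minus strand: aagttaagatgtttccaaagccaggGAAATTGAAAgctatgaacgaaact
Ifi209, chr1:173630755-173630804, plus strand: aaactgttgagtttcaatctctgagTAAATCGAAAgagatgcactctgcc
The 7 members with a match shared 5 distinct windows. Ifi213 and Ifi208 were identical over the 50 bases, as were Mndal and Ifi203, and 6 of the 7 spelt the element GAAATCGAAA.

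Members also resemble each other in their transcripts, and the gene of origin of a read from a shared stretch is uncertain. Of the 50-base windows of Ifi211 transcripts, 72.8% occurred in another gene as well, 44.7% in Ifi205 and 30.1% in Ifi204. Ifi209 shared 33.7% of its windows with other genes, chiefly Ifi214 (33.4%). Ifi206 shared 25.6%, Ifi208 20.9%, Ifi204 20.0%, Mndal 19.6%, Ifi213 15.6%, Ifi203 12.4% and Ifi207 7.29%. Aim2 shared 0.742%, the lowest share of the 10. Exons of Mndal overlap those of Ifi203 and Gm38050 on the same strand over 155 bases, where the sources do not state how reads were counted.

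Total counts ran from 1213914 to 2671533 per library, so that a floor of 3 counts corresponded to 1.12 to 2.47 counts per 1000000 counts of a library (CPM). Transcripts of the sort markers differed between CD27+ and CD11b+ libraries: among CD69- cells, Itgam, which encodes CD11b, was lower in CD27+ libraries (log2 difference -2.86) and Cd27 was higher (1.66). Cd69 was higher in CD69+ than CD69- libraries by 0.87 in CD11b+ cells (SE 0.20, adjusted p = 0.0135) and by 0.67 in CD27+ cells, where it did not pass (SE 0.20, adjusted p = 0.0907). Summed over 6 NK marker genes, the mean level was 10322 CPM in CD27+CD69+, 8760 CPM in CD27+CD69-, 14630 CPM in CD11b+CD69+ and 17893 CPM in CD11b+CD69- libraries. The CD27+CD69- libraries stood apart. Fibroblast markers, 8 genes such as Col1a1 and Dcn, summed to between 269 and 11100 CPM there, against 0 to 238 CPM in CD27+CD69+ libraries, 0 in each CD11b+CD69+ library and 0 to 8.02 CPM in CD11b+CD69- libraries. Melanoma markers reached 5810 CPM in CD27+CD69- replicate 6 and at most 255 CPM in any other CD27+CD69- library.

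Family transcripts were most abundant in the CD69+ populations, and CD11b+CD69- libraries held the least. Summed over the 10 members, the level was 1728 ± 246 CPM in CD27+CD69+, 1157 ± 221 CPM in CD27+CD69-, 1724 ± 254 CPM in CD11b+CD69+ and 840 ± 180 CPM in CD11b+CD69- libraries (SD over the 6 libraries of each). Single CD27+CD69+ libraries ran from 1475 to 2113 CPM, against 776 to 1365 CPM in CD27+CD69- libraries. Single CD11b+CD69+ libraries ran from 1301 to 1932 CPM, against 678 to 1186 CPM in CD11b+CD69- libraries. Thus in neither pair did the CD69+ and CD69- sums overlap, while both CD69+ populations overlapped each other and both CD69- populations did too. Ifi209 gave the largest share of the sum in each population, between 24.5% in CD27+CD69- and 34.4% in CD11b+CD69- libraries. These are pooled cells, so fewer cells with a transcript and less of it per cell cannot be told apart.

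**Figure D1:**
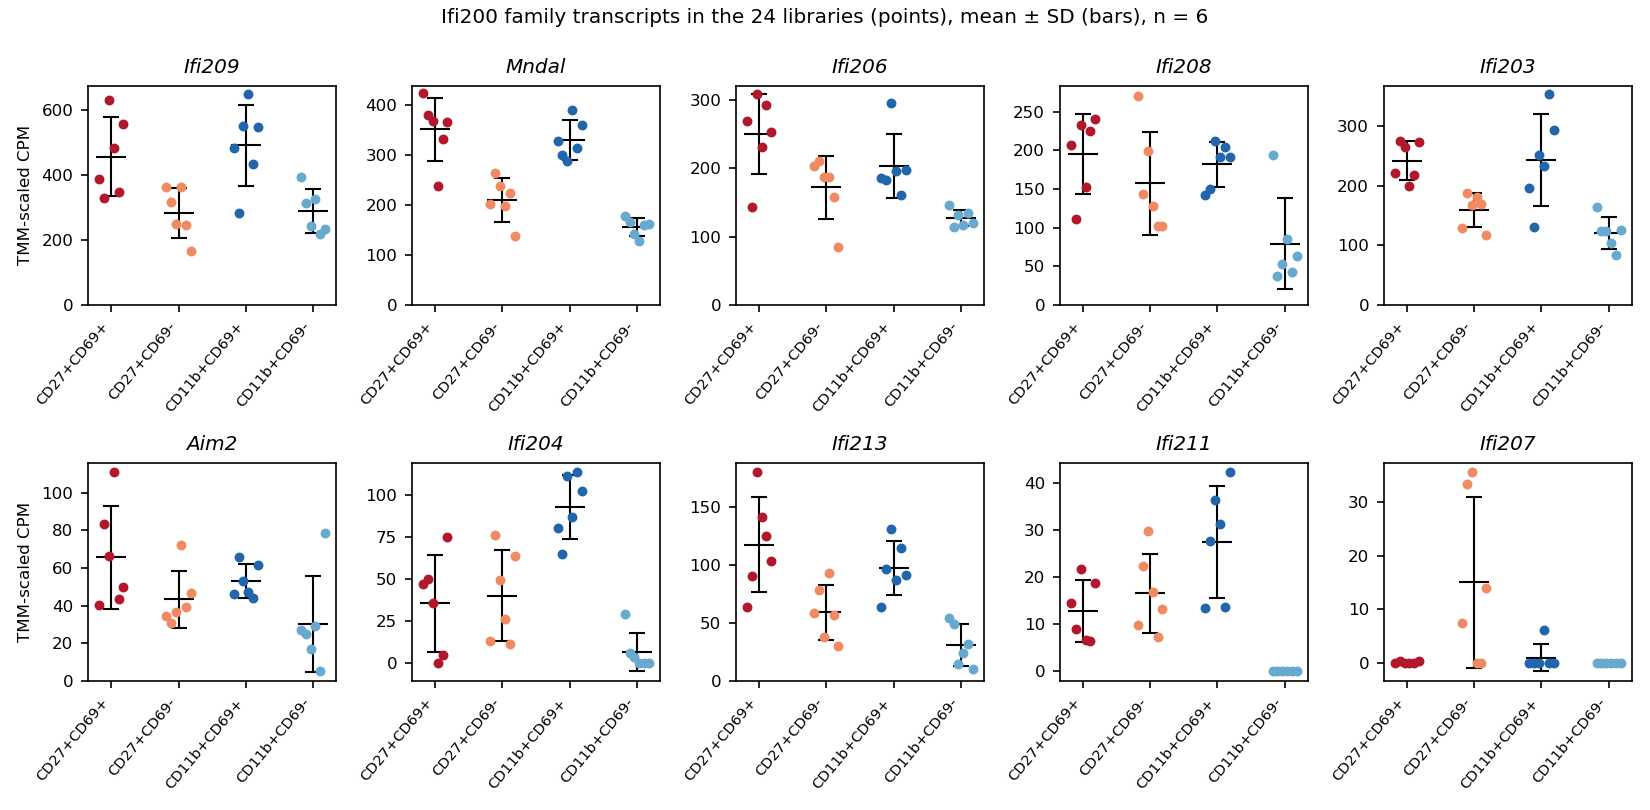
TMM-scaled CPM (vertical axes, each with its own scale) of the 10 members in the 24 libraries, by population on the horizontal axis; points are libraries and bars are mean ± SD of 6. Most members are higher in both CD69+ populations, Ifi211 is at 0 in the 6 CD11b+CD69- libraries, and 180 of the 195 Ifi207 counts are in 4 CD27+CD69- libraries.

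Per kilobase of exon, the mean level over the 24 libraries was 107 CPM for Ifi209, 72.3 for Mndal, 61.6 for Ifi206, 29.2 for Ifi208 and 28.5 for Ifi203. Lower levels per kilobase were found for Aim2 (13.8), Ifi204 (12.3), Ifi213 (11.2), Ifi211 (7.96) and Ifi207 (1.18). Most neighbours in this order differed by less than the larger of their SDs over the 24 libraries, namely Ifi209 and Mndal, Mndal and Ifi206, Ifi208 and Ifi203, and each pair from Aim2 to Ifi207. The steps from Ifi206 to Ifi208 and from Ifi203 to Aim2 exceeded 1 SD of either gene. In CD11b+CD69+ libraries Ifi204 stood at 26.2 ± 5.37 CPM per kilobase, above Aim2 at 15.2 ± 2.56 and Ifi213 at 14.3 ± 3.43, whereas in CD11b+CD69- libraries it stood at 1.82 ± 3.21, below Aim2 at 8.66 ± 7.21 and Ifi213 at 4.52 ± 2.63 (SD, n = 6).

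**Figure D2:**
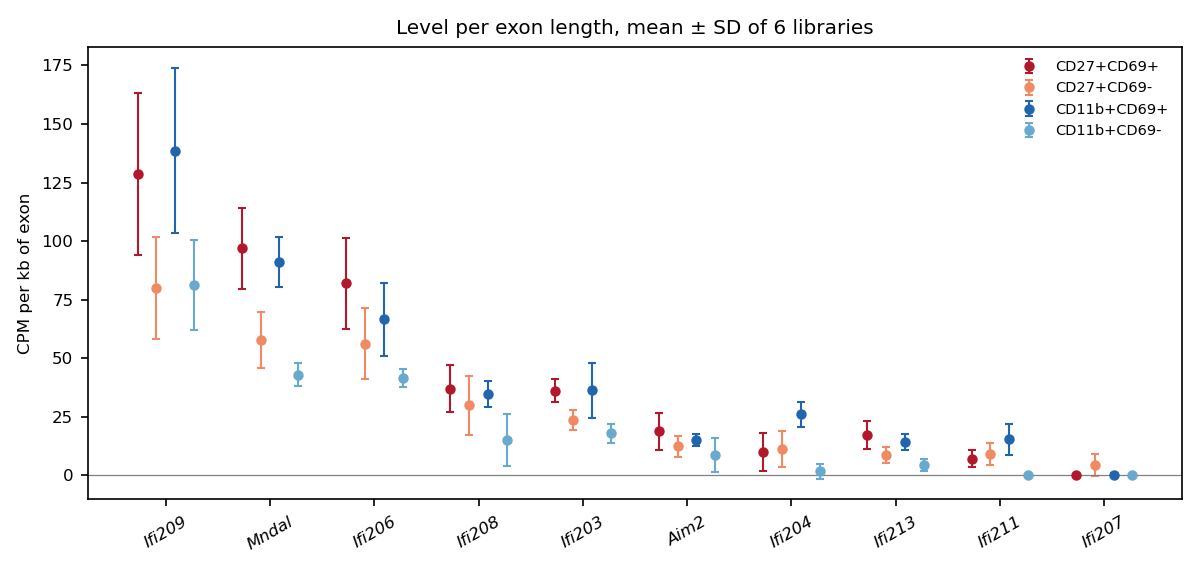
Mean level per kilobase of exon (CPM per kb, vertical axis) of each member in the 4 populations, with SD bars (n = 6). Members are ordered from Ifi209, at 107 CPM per kb over all libraries, to Ifi207, at 1.18.

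Among all 10536 genes that passed the filter on low counts, 14.1% showed a difference somewhere among the 4 populations (edgeR, quasi-likelihood F-test, adjusted p under 0.05, the threshold used throughout). Of the 10 members, 9 passed the filter and 8 of these differed, with adjusted p from 6.49e-07 (Ifi211) to 0.0341 (Ifi204). Aim2 did not (adjusted p = 0.198), and Ifi207 was too low to be tested.

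In CD11b+ cells, 8 of the 10 members rose with CD69 and none fell, while 1.64% of all genes tested rose, 1.1% fell and 2.74% passed in either direction. The exceptions were Aim2, which did not pass, and Ifi207, which was not tested. Folds ran from 1.60 for Ifi206 to at least 124 for Ifi211. The median log2 difference of the 9 tested members was 1.08, also with Ifi211 at its lower bound, against 0 over all genes tested. In 5 members, Mndal, Ifi204, Ifi206, Ifi211 and Ifi213, each CD69+ library lay above each CD69- library, as did 1.6% of all genes tested.

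Mndal, a nuclear protein of the family (ENSMUSG00000090272), had 288, 322 and 391 CPM as its lowest, median and highest value in CD69+ libraries, against 128, 161 and 178 CPM in CD69- libraries. The ranges were well apart, and the log2 difference was 1.08 (SE 0.14, adjusted p = 2.04e-05). Ifi203 (ENSMUSG00000039997), at the same end of the cluster, had 131, 242 and 354 CPM in CD69+ libraries and 84.1, 124 and 164 CPM in CD69- libraries. Its log2 difference of 1.01 (SE 0.19, adjusted p = 0.00156) rested on 5 CD69+ libraries above each CD69- library, with replicate 2 inside their range. Ifi213 (ENSMUSG00000073491) had 63.8, 94.5 and 132 CPM in CD69+ libraries and 10.3, 28.3 and 54.8 CPM in CD69- libraries. The groups did not overlap, and the difference was 1.66 (SE 0.34, adjusted p = 0.00410).

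Ifi211 (ENSMUSG00000026536) was, of the 9 tested members, the one with no counts in a whole population. It had 31 to 102 counts in each CD69+ library, or 13.4, 29.5 and 42.3 CPM as lowest, median and highest, against 0 counts in all 6 CD69- libraries. Set against a floor of 3 counts over those 6 libraries together (0.220 CPM), it was at least 124-fold higher (adjusted p = 7.59e-07). This pooled floor is below that of a single library, and the bound covers counting error only. Ifi204 (ENSMUSG00000073489), the IFI16-related sensor, showed a similar contrast. Its level was 64.8, 94.6 and 114 CPM in CD69+ libraries and 0, 1.78 and 29.2 CPM in CD69- libraries, of which replicates 4, 5 and 6 had no counts. The log2 difference was 3.85 (SE 0.94, adjusted p = 0.0246). Of the Ifi211 windows, 30.1% also occur in Ifi204. In CD27+CD69+ replicate 4, Ifi211 had 12 counts, Ifi204 and Ifi205 had 0, and Mndal, which also shares windows with Ifi211, had 433. In CD27+CD69- replicate 5, Ifi211 had 17 counts, Ifi205 0, Ifi204 27 and Mndal 522. The part of shared reads in the Ifi211 counts was not tested.

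The remaining calls were smaller. Ifi209 had 283, 516 and 651 CPM in CD69+ libraries and 219, 279 and 393 CPM in CD69- libraries, overlapping through CD69+ replicate 2, with a log2 difference of 0.77 (SE 0.20, adjusted p = 0.0349). Ifi206 had 161, 191 and 297 CPM in CD69+ libraries and 114, 126 and 146 CPM in CD69- libraries, with a difference of 0.68 (SE 0.19, adjusted p = 0.0459). Ifi208 had 143, 192 and 213 CPM in CD69+ libraries and 37.6, 58.0 and 195 CPM in CD69- libraries, the highest CD69- value coming from replicate 1, with a difference of 1.20 (SE 0.31, adjusted p = 0.0322). Aim2, the inflammasome sensor, had 44.1, 50.4 and 65.9 CPM in CD69+ libraries and 5.41, 25.9 and 78.7 CPM in CD69- libraries. Its difference of 0.80 (SE 0.38, adjusted p = 0.339) did not pass, and an approximate 95% interval ran from 0.06 to 1.55. Without CD69- replicate 6, the library with 78.7 CPM, Aim2 passed at 1.36 (adjusted p = 0.0281). This was the 1 of 21 alternative fits in which it passed, and adjusted p reached 0.494 among them.

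With single libraries left out, 4 to 7 members passed, while Mndal, Ifi203, Ifi211 and Ifi213 passed in each of the 21 alternative fits that were run. Ifi204 did not pass without CD69- replicate 2, 3, 5 or 6 or CD69+ replicate 3 (adjusted p 0.0501 to 0.0675), Ifi209 not without CD69- replicate 2, 3, 5 or 6 or CD69+ replicate 1, 3, 4 or 6 (0.0561 to 0.102), Ifi208 not without CD69- replicate 2 to 6 or CD69+ replicate 3 to 6 (0.0554 to 0.0849), and Ifi206 not without any single library other than CD69+ replicate 5 (0.0536 to 0.144). Among markers of other cells, dendritic cell genes summed to 31.2 to 206 CPM in CD69+ libraries and 5.33 to 50.4 CPM in CD69- libraries. Of these 7 genes, 5 had counts in CD69+ and 4 in CD69- libraries. Flt3 and Clec9a were at 0 in both populations, and Xcr1 was at 0 in the CD69- libraries alone. T cell genes summed to 1148 to 1507 CPM in CD69+ libraries and 872 to 1222 CPM in CD69- libraries, with Cd8a at 0 in the CD69+ and Cd4 and Cd8b1 at 0 in the CD69- libraries. Their part in the result was not tested. Macrophage markers overlapped, at 16.1 to 50.4 CPM in CD69+ libraries and 8.22 to 56.9 CPM in CD69- libraries, and 8 members passed with their level as a covariate.

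**Figure D3:**
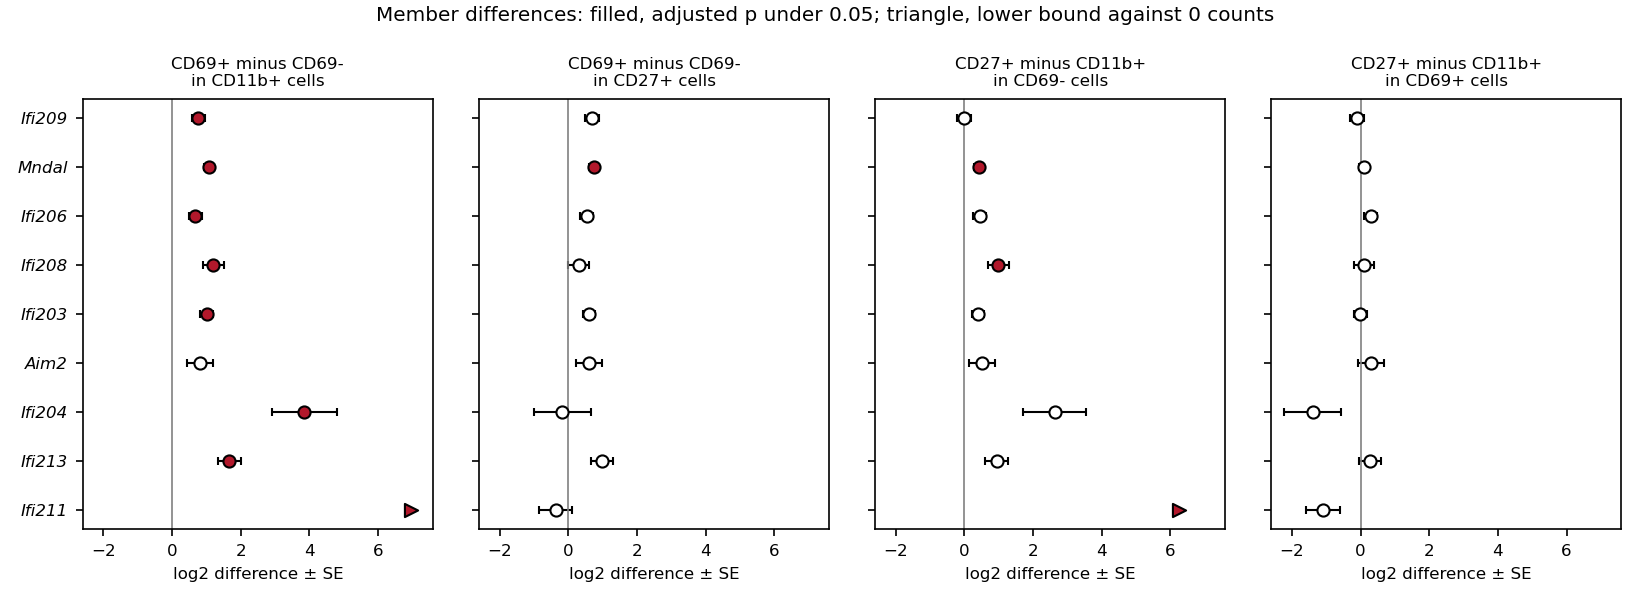
Log2 differences (horizontal axes) ± SE of the 9 tested members (rows) in the 4 pairwise comparisons; filled symbols have an adjusted p under 0.05 and triangles are lower bounds against 0 counts. In CD11b+ cells 8 members are filled, in CD27+ cells Mndal alone, among CD69- cells Ifi211, Ifi208 and Mndal, and among CD69+ cells none.

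In CD27+ cells, Mndal was the member that rose with CD69, while 0.55% of all genes tested rose, 1.3% fell and 1.85% passed in either direction. It had 239, 367 and 424 CPM in CD69+ libraries, against 137, 213 and 264 CPM in CD69- libraries, with 5 of 6 CD69+ libraries above each CD69- library. The log2 difference was 0.74 (SE 0.14, adjusted p = 0.00274), a fold of 1.67. Estimates were above 0 for 7 of the 9 tested members, with a median of 0.60 against -0.01 over all genes tested.

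Several members lay near the threshold. Ifi203 had 199, 243 and 276 CPM in CD69+ libraries and 118, 168 and 188 CPM in CD69- libraries, without overlap, as for 0.731% of all genes tested in this direction. Its difference of 0.61 (SE 0.18) had an adjusted p of 0.0968. Ifi209 differed by 0.68 (SE 0.20, adjusted p = 0.0847), Ifi213 by 0.98 (SE 0.33, adjusted p = 0.146) and Ifi206 by 0.54 (SE 0.19, adjusted p = 0.171). Ifi206 passed without CD69+ replicate 2 (0.66, adjusted p = 0.0447), and Ifi209 passed with DESeq2 (adjusted p = 0.0473) and with none of the 12 single libraries left out. Aim2 ranged from 40.4 to 111 CPM in CD69+ libraries, against 30.9 to 72.4 CPM in CD69- libraries, with a difference of 0.60 (SE 0.38, adjusted p = 0.665). Ifi208 (0.31, SE 0.31, adjusted p = 0.866) varied widely within the CD69- libraries, at 101 to 271 CPM.

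Neither Ifi211 nor Ifi204, which had the sharpest contrasts in CD11b+ cells, passed here. Ifi211 had 6.35, 11.7 and 21.8 CPM in CD69+ libraries and 7.28, 15.1 and 29.8 CPM in CD69- libraries, with a log2 difference of -0.37 (SE 0.49, adjusted p = 0.920). Ifi204 had 0, 41.4 and 75.1 CPM in CD69+ libraries and 11.6, 38.0 and 76.5 CPM in CD69- libraries, with a difference of -0.17 (SE 0.83, adjusted p = 0.988). The 3 CD27+CD69- libraries with over 5000 CPM of fibroblast markers, replicates 2, 3 and 6, were then left out. Both estimates were above 0 without them, and neither passed (0.18, adjusted p = 0.987 for Ifi211 and 1.07, adjusted p = 0.917 for Ifi204). Mndal then kept its call (0.76, adjusted p = 0.0147). With the fibroblast marker level as a covariate it did not (0.49, adjusted p = 0.9999), in a fit that called 1 gene in all. Marker sums were 0 to 238 CPM in CD27+CD69+ and 269 to 11100 CPM in CD27+CD69- libraries. That fit therefore cannot separate marker level from population.

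Tested directly, the size of the CD69 difference was not the same in CD27+ and CD11b+ cells for Ifi211 (adjusted p = 1.40e-05), as for 0.579% of all genes tested. All 9 estimates of this difference of differences were below 0, meaning a smaller CD69 difference in CD27+ cells, with a median of -0.40 against -0.03 over all genes tested. The other 8 did not pass. Ifi204 came nearest, at -4.02 (SE 1.24, adjusted p = 0.180), and passed without CD11b+CD69- replicate 1 (-5.76, adjusted p = 0.0177). For Mndal the estimate was -0.34 (SE 0.20, adjusted p = 0.657), and for Ifi209 it was -0.09 (SE 0.29, adjusted p = 0.988). The Ifi211 estimate was -9.23, and it rests on the 0 counts of CD11b+CD69- libraries. With the fibroblast marker level as a covariate it was -8.28 and did not pass (adjusted p = 0.0687), in a fit that called 1 gene in all. That fit cannot separate marker level from the CD27+CD69- population, where the level was highest. Without the 3 libraries named above the Ifi211 call held (adjusted p = 0.000418).

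Among CD69- cells, CD27+ libraries had more Ifi211, Ifi208 and Mndal than CD11b+ libraries, and no member was lower. These are 3 of the 10 members, while 7.46% of all genes tested were higher, 4.92% were lower and 12.4% passed in either direction. Ifi211 had 7.28 to 29.8 CPM in CD27+ libraries against 0 counts in CD11b+ libraries. It was at least 76.1-fold higher against the same pooled floor, counting error only (adjusted p = 3.56e-07). Ifi211 was the member without overlap, as were 3.86% of all genes tested. Ifi208 had 101, 135 and 271 CPM in CD27+ and 37.6, 58.0 and 195 CPM in CD11b+ libraries, with a log2 difference of 0.99 (SE 0.31, adjusted p = 0.0339). Mndal had 137, 213 and 264 CPM in CD27+ and 128, 161 and 178 CPM in CD11b+ libraries, with a difference of 0.43 (SE 0.14, adjusted p = 0.0406).

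Below the threshold, Ifi204 had 11.6, 38.0 and 76.5 CPM in CD27+ and 0, 1.78 and 29.2 CPM in CD11b+ libraries, each CD27+ library being above the CD11b+ median (2.63, SE 0.92, adjusted p = 0.0625). Ifi213 differed by 0.95 (SE 0.34, adjusted p = 0.0647), Ifi206 by 0.44 (SE 0.19, adjusted p = 0.139), Ifi203 by 0.40 (SE 0.19, adjusted p = 0.191) and Aim2 by 0.51 (SE 0.38, adjusted p = 0.470). Ifi209 stood at 284 ± 77.4 CPM in CD27+ and 288 ± 67.6 CPM in CD11b+ libraries, a difference of -0.02 with an approximate 95% interval from -0.42 to 0.38. The median over the 9 tested members was 0.51, with 0.05 over all genes tested.

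Of the 9 tested members, 1 to 5 passed with single libraries left out, with 5 without CD11b+ replicate 1 or CD27+ replicate 6 and Ifi211 alone without CD11b+ replicate 3 or 5. Ifi208 did not pass without CD27+ replicate 1 or 3 or CD11b+ replicate 2, 3, 5 or 6 (adjusted p 0.0678 to 0.107), nor Mndal without CD27+ replicate 2, 3, 4 or 5 or CD11b+ replicate 3, 4, 5 or 6 (0.0535 to 0.115). Without the 3 libraries rich in fibroblast markers, Ifi211 remained and Ifi208 (adjusted p = 0.0823) and Mndal (0.0913) did not. The same held with those markers as a covariate, at 0.66 for Ifi208 (adjusted p = 0.994) and 0.71 for Mndal (0.665). Fibroblast markers summed to 269 to 11100 CPM in these CD27+ libraries and 0 to 8.02 CPM in the CD11b+ ones. The covariate fit therefore cannot separate marker level from population, and the part of stromal RNA was not tested. Ifi204 passed without CD11b+ replicate 1 or CD27+ replicate 1 or 5, Ifi213 without CD11b+ replicate 1 or 2 or CD27+ replicate 3 or 6, Ifi206 without CD27+ replicate 6, and Aim2 without CD11b+ replicate 6.

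Among CD69+ cells, no member passed between CD27+ and CD11b+ libraries, and 1.9% of all genes tested did. The count was also 0 with DESeq2 and limma-voom, and 1 member, Ifi211, had an unadjusted p under 0.05 in edgeR. Ifi211 had 6.35, 11.7 and 21.8 CPM in CD27+ and 13.4, 29.5 and 42.3 CPM in CD11b+ libraries, a log2 difference of -1.09 (SE 0.49, adjusted p = 0.381). Ifi204 had 0, 41.4 and 75.1 CPM in CD27+ and 64.8, 94.6 and 114 CPM in CD11b+ libraries (-1.39, SE 0.83, adjusted p = 0.603), with each CD27+ library below the CD11b+ median. The other 7 tested members differed by -0.11 to 0.31. For Mndal, the approximate 95% interval of the difference was -0.18 to 0.36, and for Ifi203 it was -0.37 to 0.35.

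Ifi207 (ENSMUSG00000073490) departed from the other members. It had 2 counts in CD27+CD69+, 180 in CD27+CD69-, 13 in CD11b+CD69+ and 0 in CD11b+CD69- libraries. The 180 counts came from replicates 1, 2, 3 and 6, at 7.39, 33.2, 35.4 and 14.0 CPM, while replicates 4 and 5 had none. In CD27+ cells the ratio of CD69+ to CD69- libraries was 0.00996 (95% interval 0.00120 to 0.0365, counting error only). Among CD69- cells, CD27+ libraries were at least 72.1-fold higher than CD11b+ libraries against the pooled floor, also counting error only. With no filter on low counts, the adjusted p was 0.0530 for CD69+ against CD69- in CD27+ cells and 0.00514 for CD27+ against CD11b+ among CD69- cells. Ifi207 also passed the filter in some fits with a library left out, but only where CD27+CD69- replicates 1, 2, 3 and 6 were all kept. Its pass thus depended on the libraries where it was high, and the calls in these fits add no support. Among CD69- cells it was called in 8 of 8 such fits, higher in CD27+ libraries (adjusted p 0.00385 to 0.0127). In CD27+ cells it was called in 1 of 8, lower in CD69+ libraries without CD69- replicate 5 (adjusted p = 0.0368).

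The neighbouring family gene Ifi205, which is no member of the set, had a like distribution, with 0 counts in CD27+CD69+, 1666 in CD27+CD69-, 5 in CD11b+CD69+ and 0 in CD11b+CD69- libraries. Within CD27+CD69- replicates 1 to 6 it stood at 125, 305, 233, 60.2, 0 and 134 CPM. Fibroblast marker sums in the same libraries were 3062, 11100, 8407, 3394, 269 and 7479 CPM, and macrophage marker sums were 22.7, 70.1, 26.0, 86.0, 62.9 and 302 CPM. Replicate 5, which had the lowest fibroblast sum, had no counts of either gene, and replicates 2 and 3, which had the highest, had the most of both. The order was not kept throughout. Replicate 4 had a higher fibroblast sum than replicate 1 (3394 against 3062 CPM) but less Ifi205 (60.2 against 125 CPM) and no Ifi207 counts. The part of stromal RNA in these values was not tested. Of the 11 macrophage and monocyte markers, 9 had counts in CD27+CD69- libraries, while C1qb and C1qc were at 0 in all of them. The sum of these markers averaged 94.9 CPM there (SD 104). It averaged 31.5 CPM in CD27+CD69+, 34.3 CPM in CD11b+CD69+ and 34.1 CPM in CD11b+CD69- libraries.

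**Figure D4:**
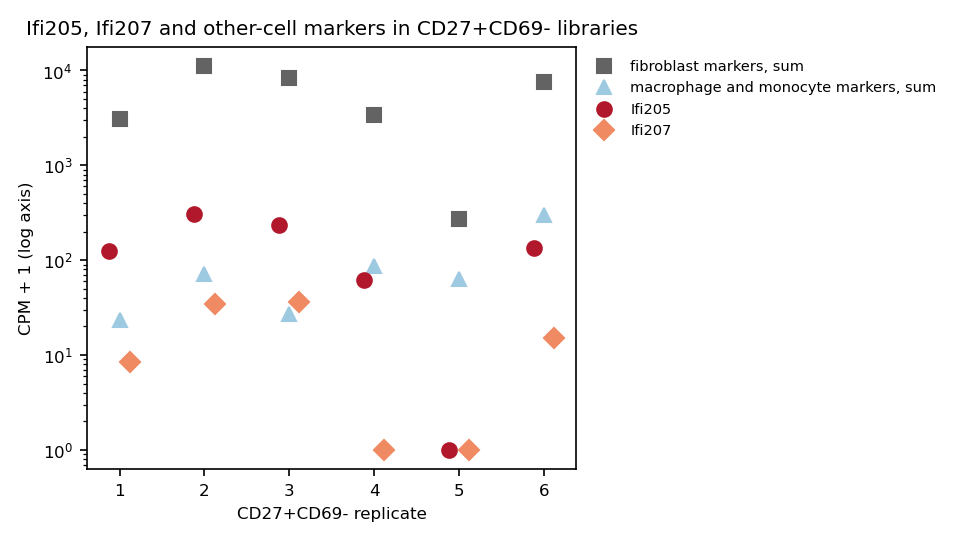
CPM + 1 on a log axis (vertical) of Ifi205, Ifi207, and the summed fibroblast and macrophage markers in the 6 CD27+CD69- libraries (horizontal axis). Replicate 5 has 0 counts of Ifi205 and Ifi207 and the lowest fibroblast sum, 269 CPM. Replicate 4 also has 0 counts of Ifi207, with a fibroblast sum of 3394 CPM.

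Of the other genes at the locus, Ifi214, whose transcripts share windows with Ifi209, was tested and passed in no comparison. Its level was 59.1 ± 15.4 CPM in CD27+CD69+, 43.5 ± 18.1 CPM in CD27+CD69-, 61.1 ± 22.4 CPM in CD11b+CD69+ and 31.1 ± 21.3 CPM in CD11b+CD69- libraries. Ifi202b and Fcer1a had 0 counts in all 24 libraries. Cadm3, with 12 counts in all, and Ackr1, with 101, were detected in CD27+CD69- libraries alone. The pseudogene Ifi203-ps had 5 counts. Ifi16, Mnda, Pydc3 and Pydc4 were not analysed here.

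Genes that act with the family in DNA sensing were read in the same fits. Of 19 genes for DNA sensing outside the family, 17 were tested. For this list and those that follow, 2.74% of all genes tested passed with CD69 in CD11b+ cells and 1.85% in CD27+ cells. Between CD27+ and CD11b+ cells, 12.4% passed among CD69- cells. In CD11b+ cells 1 rose with CD69, namely Tmem173, which encodes STING, the adaptor downstream of cytosolic DNA sensing. It had 445 ± 36.4 CPM in CD69+ libraries and 305 ± 74.0 CPM in CD69- libraries, a log2 difference of 0.54 (SE 0.14, adjusted p = 0.0367). The list's median difference there was 0.18, against 0 over all genes. Among CD69- cells Xrcc5, which encodes the Ku80 subunit of the DNA end-binding Ku complex, was higher in CD27+ libraries by 1.03 (SE 0.24, adjusted p = 0.00363), and the median was 0.23 against 0.05. In the other comparisons 0 of the 17 passed.

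Of 16 inflammasome genes, 10 were tested, and Il1b, Il1a, Nlrp3, Nlrc4, Nlrp1b and Mefv were too low. Casp4, the sensor protease of the noncanonical inflammasome, rose with CD69 in CD11b+ cells by 1.15 (SE 0.32, adjusted p = 0.0462), with 103 ± 48.7 CPM in CD69+ libraries and 46.3 ± 14.6 CPM in CD69- libraries. Casp1, the protease activated by Aim2 inflammasomes, rose with CD69 in CD27+ cells by 0.61 (SE 0.15, adjusted p = 0.0357), at 197 ± 19.3 CPM in CD69+ libraries and 129 ± 28.4 CPM in CD69- libraries. Gsdmd, which forms the pore of pyroptosis, had 117 ± 35.6 CPM in CD27+CD69- and 184 ± 40.6 CPM in CD11b+CD69- libraries, a lower level in CD27+ (-0.65, SE 0.20, adjusted p = 0.0308). The list's medians were -0.01 with CD69 in CD11b+ cells and 0.02 in CD27+ cells. Calls of listed genes that involve CD27+CD69- libraries, in all lists, were not examined for the part of stromal RNA. Without the 3 libraries rich in fibroblast markers, calls over all genes went from 195 to 66 for CD69 in CD27+ cells. They went from 1304 to 874 between CD27+ and CD11b+ CD69- cells. With the fibroblast covariate, which cannot be separated from the CD27+CD69- population, they were 1 and 44.

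All 25 genes of the interferon pathway list were tested. With CD69, 10 rose and 1 fell in CD11b+ cells (median 0.63, all genes 0), and 0 passed in CD27+ cells (median 0.29, all genes -0.01). Of all genes tested, 1.64% rose and 1.1% fell in CD11b+ cells, and 1.85% passed in CD27+ cells. Among CD69- cells 9 were higher and 2 lower in CD27+ than in CD11b+ libraries (median 0.44, all genes 0.05), beside 7.46% and 4.92% of all genes. Among CD69+ cells 1 was lower, and 1.9% of all genes passed in either direction. Bst2, which encodes the antiviral protein tetherin, had 154 ± 39.2 CPM in CD11b+CD69+ and 47.7 ± 15.0 CPM in CD11b+CD69- libraries (log2 difference 1.69, SE 0.20, adjusted p = 8.04e-06). Usp18, a protease that restrains interferon receptor signalling, had 219 ± 113 CPM in CD11b+CD69+ and 32.7 ± 20.6 CPM in CD11b+CD69- libraries (2.74, SE 0.41, adjusted p = 0.000154). Ifi44, an interferon-induced gene, had 75.1 ± 45.0 CPM in CD11b+CD69+ and 25.9 ± 11.3 CPM in CD27+CD69- libraries, against 0 counts in CD11b+CD69- libraries, the population in which Ifi211 was also at 0. Irf8, a transcription factor of the interferon regulatory family, had a lower level in CD27+ than in CD11b+ cells, with a log2 difference of -2.12 among CD69- cells (adjusted p = 9.08e-10) and -1.44 among CD69+ cells (adjusted p = 1.35e-06). The CD69 difference was smaller in CD27+ than in CD11b+ cells for 5 of the 25, among them Ifi44, Bst2, Rsad2 and Oasl2. Of all genes tested, 0.579% passed in either direction.

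The mean profile of the 9 tested members was then set beside the other tested genes, by the mean absolute difference of log2 CPM, each centred on its mean over the 24 libraries. Library depth is shared by all these values, and the likeness is a description. The genes most like it were Lgals3bp (0.30), Oas1a (0.30), Bst2 (0.31), Ly6e (0.38) and Serpina3g (0.40). Of the members, Ifi208 (0.37), Mndal (0.37) and Ifi203 (0.40) were closest to the mean of which they are part, and Ifi211 (1.00) and Ifi204 (1.44) farthest. Lgals3bp, which encodes a secreted glycoprotein, averaged 777 CPM in CD27+CD69+, 618 CPM in CD27+CD69-, 746 CPM in CD11b+CD69+ and 335 CPM in CD11b+CD69- libraries. Oas1a, an oligoadenylate synthetase of antiviral defence, averaged 75.9 CPM in CD27+CD69+, 47.4 CPM in CD27+CD69-, 84.7 CPM in CD11b+CD69+ and 24.5 CPM in CD11b+CD69- libraries.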

How the data were processed

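The authors deposited raw counts per gene, 1 column per library, with no normalization. Per the labels' protocols, 100 sorted cells per library were copied with SMART-Seq v4 and prepared with Nextera XT, which keep neither strand nor molecular identifiers, so the interval of a ratio of counts and the floors measure counting error alone. The submitters' processing notes name GRCm38, HTSeq and Picard. Aligner, annotation release and strand setting: not given in the sources used here. Of 53471 entries, 6 repeats were removed. The median total was 2213433 counts.

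Tests used edgeR 4.0.16 in R 4.3.3 (filterByExpr with minimum count 10, TMM factors 0.958 to 1.06, robust quasi-likelihood F-test, 1 fit of 4 group means to 24 libraries), with Benjamini-Hochberg adjustment over 10536 genes and a threshold of 0.05. CPM are TMM-scaled. SEs were taken from the F statistic, and approximate 95% intervals of log2 differences are 1.96 SE and cover variation among libraries. Alternatives were DESeq2 1.42.0 with its size factors, limma 3.58.1 (voom), no filter, the M number of the titles as a block, marker covariates, the populations compared alone, and each library left out. The fibroblast covariate and the joint omission of 3 libraries were chosen after seeing the data. The fibroblast marker sum was higher in each CD27+CD69- library than in any library of the other populations. Fits with this covariate therefore cannot separate it from that population. Scripts were tested on simulated data.

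The members, the gene lists and the tests were chosen with earlier results of these data known. Named genes are the members, the listed neighbours, the sort markers, up to 4 genes of each list with the smallest p past the threshold, and the 5 genes with the most similar profile. Exon lengths came from GENCODE M21 and promoters from RefSeq (GRCm38.p6). A planned comparison of member proteins was not made.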

Additional observations from a re-analysis of the deposited data

Results flagged for a closer look

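In 38 sets of 6 libraries with any counts, 5 held a library far from the others by Dixon's criterion at 95%. For normally distributed values chance gives this in about 1 of 20. Some of these sets hold zeros, so that rate need not apply and no excess is read from the count. Ifi204 stood at 29.2 CPM in CD11b+CD69- replicate 1, where the other 5 libraries had 0 to 6.12 CPM. Ifi208 was also high in that library, at 195 CPM against 37.6 to 84.8 CPM in the others. Aim2 had 78.7 CPM in CD11b+CD69- replicate 6 and 5.41 to 29.0 CPM in the others. Ifi206 had 297 CPM in CD11b+CD69+ replicate 3, above 161 to 198 CPM in the others. Ifi207 had 6.24 CPM in CD11b+CD69+ replicate 4 and 0 in the others, a set that the criterion flags whatever the value. The CD69 difference of Ifi211 differed between CD27+ and CD11b+ cells (adjusted p = 1.40e-05), and CD11b+CD69- was the population with 0 counts.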

How the results depend on the processing

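The counts of members called that moved by over 1.5 times were, for CD69 in CD11b+ cells, 5 with no filter against 8; for CD69 in CD27+ cells, 2 with DESeq2 and 0 with the fibroblast covariate against 1; for CD27+ against CD11b+ among CD69- cells, 1 with the fibroblast covariate, without the 3 libraries rich in fibroblast markers and in the fit to those populations alone, against 3; and for the difference of CD69 differences, 2 with limma-voom and 0 with the fibroblast covariate against 1. With single libraries left out these counts ran from 4 to 7, 1 to 2, 2 to 6 and 1 to 2, it stayed 0 for CD27+ against CD11b+ among CD69+ cells, and any difference was called for 7 to 9 members. These ranges count Ifi207 where it passed the filter, and over the other 9 members they are 4 to 7, 1 to 2, 1 to 5, 1 to 2, 0 and 6 to 8.
Over all genes, 289 calls for CD69 in CD11b+ cells became 188 with no filter and 483 with DESeq2 (210 to 257 with single libraries left out), and the share of higher calls, 59.9%, was 47.2% with limma-voom. For CD69 in CD27+ cells 195 became 405 (no filter), 293 (limma-voom), 109 (macrophage covariate), 1 (fibroblast covariate) and 66 (without the 3 libraries), or 121 to 393 with single libraries left out. CD27+ against CD11b+ gave 44 of 1304 with the fibroblast covariate among CD69- cells (1053 to 1483 with single libraries left out) and 316 of 200 with DESeq2 among CD69+ cells (145 to 190). The difference of differences gave 169 (DESeq2), 34 (macrophage covariate), 1 (fibroblast covariate) and 19 (without the 3 libraries) against 61, or 37 to 107, and any difference 3251 (no filter) and 639 (fibroblast covariate) against 1483, or 1345 to 1670.
Sign changes were confined to estimates that did not pass. For CD69 in CD27+ cells, Ifi204 became 0.85 with the fibroblast covariate and 1.07 without the 3 libraries (-0.53 to 0.13 with single libraries left out), and Ifi211 became 0.68 and 0.18. Ifi209 between CD27+ and CD11b+ CD69- cells became 0.0096 with DESeq2 size factors, 0.0094 with DESeq2, 0.17 with the macrophage covariate and 0.17 without the 3 libraries (-0.10 to 0.091 with single libraries left out). Ifi203 between CD69+ cells became 0.025 with limma-voom and 0.0043 with the fibroblast covariate (-0.13 to 0.13). The difference of differences became 0.22 with the fibroblast covariate for Ifi209 (-0.20 to 0.0087) and 0.033 with the macrophage and 0.13 with the fibroblast covariate for Aim2 (-0.76 to 0.013). The cause of these changes was not tested.
Whether the M numbers pair libraries was not settled. Correlations of same-numbered deviations ran from -0.03 to 0.21, with 1 of 24 over 0.1, and 5 libraries of 24 were closest to their own number. The highest was between the CD27+CD69+ and CD27+CD69- libraries of number 6. Low correlations cannot show that same-numbered libraries were unpaired, because variation of single libraries can hide a shared source. With the replicate block, 7, 1, 3, 0 and 1 members were called in the 4 comparisons and the difference of differences; Ifi206 with CD69 in CD11b+ cells (0.67, adjusted p = 0.0516) and Mndal among CD69- cells (0.43, adjusted p = 0.0573) did not pass, and Ifi204 among CD69- cells did (3.20, adjusted p = 0.0273).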
